A study of Mus musculus with 8 samples.

Results

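The genes at the posterior ends of the HoxA and HoxD clusters were examined: Hoxa9, Hoxa10, Hoxa11 and Hoxa13 on chromosome 6, and Hoxd9, Hoxd10, Hoxd11, Hoxd12, Hoxd13 and their neighbour Evx2 on chromosome 2. These 10 genes were chosen by name, and every region of the authors' deposited table that overlapped the RefSeq span of a gene extended by 2 kb on both sides was taken, whatever its p. This gave 26 of the 265968 listed regions, 16 at the HoxD end and 10 at the HoxA end, and 9 of the 10 genes had at least 1, against 31.2% of 21887 protein-coding genes. The study profiled H3K27me3 by chromatin immunoprecipitation in mouse 3T3 fibroblasts, an immortalised embryonic line, that carried either a control construct or a construct for overexpression of NNMT, an enzyme that methylates nicotinamide. Per construct there were 3 immunoprecipitated libraries and 1 input, by the labels. All cells were grown for 48 h in DMEM with 10 µM methionine and 10% dialyzed serum, and no other allele or agent is named. No label says whether a construct was carried by a clone or by a mixed population.

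Hox genes encode homeodomain transcription factors that give cells their position along the body axis, and within a cluster their order on the chromosome follows the order in which they act along the axis. The posterior paralogues 9 to 13 pattern the lower trunk, the limbs and the urogenital tract, and Evx2 is a homeobox gene next to Hoxd13 that shares its limb and genital enhancers. H3K27me3 is the mark that Polycomb repressive complex 2 places over Hox genes in cells where they are silent, and a fibroblast line keeps some Hox genes open and others marked according to the body site it came from.

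The authors' deposited table compares a first set of 3 libraries with a second set of 3 and names neither. The submitters' title for the comparison puts NNMT before control, but no source used here says that the values follow that order, so the name set 1 here means the values listed first and set 2 those listed after them, and no direction is tied to NNMT. The library order within a set is not given either, so values are listed as deposited, and the error of a ratio is its range when each set 1 library is divided by each set 2 library, 9 pairs in all. Because the libraries carry no labels and the table was already selected for a difference, no p was computed. Values summed over the whole table ran from 39899303 to 41971892 in set 1 and from 35565866 to 36958436 in set 2, a shift of 0.19 on the log2 scale towards set 1 against which each difference below has to be read. Sequencing depth is unknown. None of the 11 fibroblast markers looked up, such as Col1a1 and Vim, had a listed region, against 3 of 5 epithelial, 4 of 5 leukocyte and 4 of 5 endothelial markers, beside the same 31.2% over all protein-coding genes. Listed regions are no measure of expression.

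The HoxD end had higher values in set 1, while the HoxA end had similar sums in both sets. Of the 16 HoxD regions 15 were higher in set 1, and 11 had all 3 set 1 values above all 3 set 2 values. The 10 HoxA regions were evenly divided, 5 higher in either set, and the sets overlapped in 8. Among other regions within 1 Mb, 814 of 871 around the HoxD end were higher in set 1, and 322 of 640 around the HoxA end. All set 1 values lay above all set 2 values in 654 of the 871 and 188 of the 640. For comparison, 59.5% of all listed regions had the higher sum in set 1 and 40.5% had it in set 2; all set 1 values lay above all set 2 values in 40.5% of regions, the reverse held in 24.7%, and the sets did not overlap in 65.1%. Counted once each, the 16 HoxD regions of the authors' deposited table summed to 5457, 5796 and 5386 in set 1 against 4199, 4112 and 4255 in set 2, which is 1.32-fold (1.27 to 1.41 over library pairs). The 10 HoxA regions summed to 3800, 3784 and 3989 in set 1 against 4047, 3986 and 3955 in set 2, a ratio of 0.965 (0.935 to 1.01). A single long region weighs heavily in each sum. Over the 3 libraries of set 1 and of set 2, a 7600 bp region at Evx2 held 7101 and 5541. At the HoxA end a 6650 bp region over Hoxa10 held 6360 and 6685. The 13 HoxD regions without those of Evx2 had a ratio of 1.49 (1.41 to 1.59). At the HoxD end the lowest set 1 library was above the highest set 2 library, and at the HoxA end the sets overlapped. In such bulk chromatin, more cells carrying the mark and more mark per cell cannot be told apart.

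The contrast between the ends does not change with a scaling factor per library, because it can be read within each library. The HoxD sum divided by the HoxA sum of the same library was 1.44, 1.53 and 1.35 in set 1 against 1.04, 1.03 and 1.08 in set 2. All 3 libraries of set 1 lay above those of set 2. On the log2 scale the ratios of the ends, 0.41 and -0.05, differed by 0.46. With the sets rescaled to equal sums over the whole table they were 0.21 at the HoxD end and -0.24 at the HoxA end, so the HoxD direction held and the HoxA end moved towards set 2.

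**Figure D1:**
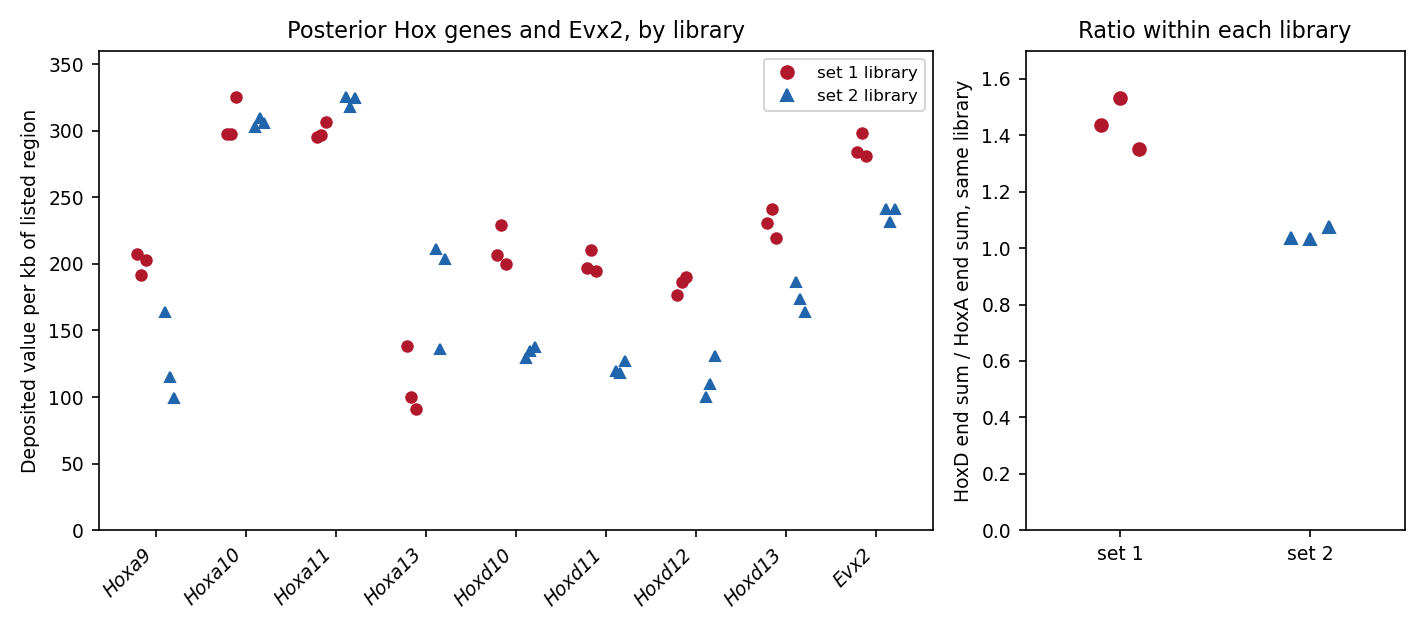
Left, deposited value per kb of listed region for each of the 9 genes with a region, with a circle for each library of set 1 and a triangle for each of set 2 (linear axis from 0). Right, the summed value of the HoxD end divided by that of the HoxA end within each library; the set 1 libraries sit between 1.35 and 1.53 and the set 2 libraries between 1.03 and 1.08.

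Some regions covered the annotated start of a gene and others stopped short of it. The 10 genes have 12 starts in the RefSeq promoter table (GRCm38.p6), and 5 of them, both of Hoxa10 and those of Hoxa11, Hoxd12 and Evx2, lay inside a listed region. The other 7 lay between 458 and 2113 bp from the nearest region. The annotated spans of Evx2 and Hoxd10 reach further upstream than these starts, to 74661520 and 74684273, and those edges are not among the 12. The Evx2 edge lies inside a region with all set 1 values above all set 2 values. The Hoxd10 edge lies just before the region at 74684301, also higher in set 1. The 250 bases before 6 of the 12 starts follow because they show both cases. Evx2, Hoxd12, Hoxa10 and Hoxa11 have their start in a region. Hoxd13 and Hoxa13, with the most CpG of the 12, have theirs in an unlisted gap. Capitals mark CpG dinucleotides, the feature by which CpG islands, where Polycomb complexes commonly assemble, are recognised. Each is written 5′ to 3′ on the strand of its gene.
Evx2 (chr2:74659558-74659807, minus strand): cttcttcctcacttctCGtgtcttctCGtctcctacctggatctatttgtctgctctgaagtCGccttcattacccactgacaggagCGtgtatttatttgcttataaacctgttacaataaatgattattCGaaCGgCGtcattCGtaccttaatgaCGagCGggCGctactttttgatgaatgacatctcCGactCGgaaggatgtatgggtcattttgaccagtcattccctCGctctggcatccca
Hoxd12 (chr2:74674763-74675012, plus strand): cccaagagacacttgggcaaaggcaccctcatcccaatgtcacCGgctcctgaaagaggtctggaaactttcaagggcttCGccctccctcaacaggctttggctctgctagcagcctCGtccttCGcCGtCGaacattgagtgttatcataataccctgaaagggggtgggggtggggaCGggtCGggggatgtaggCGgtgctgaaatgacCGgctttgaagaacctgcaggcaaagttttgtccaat
Hoxd13 (chr2:74667975-74668224, plus strand): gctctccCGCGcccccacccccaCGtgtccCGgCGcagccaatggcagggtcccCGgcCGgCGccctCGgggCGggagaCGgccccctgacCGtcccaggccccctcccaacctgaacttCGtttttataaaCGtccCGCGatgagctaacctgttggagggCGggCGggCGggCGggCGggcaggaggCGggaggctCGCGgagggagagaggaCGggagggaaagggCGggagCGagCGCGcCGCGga
Hoxa10 (chr6:52240855-52241104, minus strand): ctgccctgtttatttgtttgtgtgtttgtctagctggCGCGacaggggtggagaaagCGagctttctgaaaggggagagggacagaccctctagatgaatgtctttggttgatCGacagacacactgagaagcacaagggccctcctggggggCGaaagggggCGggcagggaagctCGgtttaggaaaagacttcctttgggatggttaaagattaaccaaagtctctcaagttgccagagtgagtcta
Hoxa11 (chr6:52245811-52246060, minus strand): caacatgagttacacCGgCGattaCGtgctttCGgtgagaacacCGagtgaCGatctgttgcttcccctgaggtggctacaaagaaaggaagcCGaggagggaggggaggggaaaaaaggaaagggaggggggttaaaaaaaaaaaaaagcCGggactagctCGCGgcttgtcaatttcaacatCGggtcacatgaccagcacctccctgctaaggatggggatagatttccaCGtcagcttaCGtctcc
Hoxa13 (chr6:52260881-52261130, minus strand): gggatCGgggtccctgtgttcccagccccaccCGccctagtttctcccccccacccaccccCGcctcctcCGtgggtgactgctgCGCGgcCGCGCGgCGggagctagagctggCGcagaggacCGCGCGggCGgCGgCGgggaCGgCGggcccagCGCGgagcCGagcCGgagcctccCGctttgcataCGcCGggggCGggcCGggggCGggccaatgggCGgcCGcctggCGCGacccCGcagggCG

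These stretches held 14 CpG at Evx2, 10 at Hoxd12, 31 at Hoxd13, 7 at this start of Hoxa10, 13 at Hoxa11 and 35 at Hoxa13. Over all 12 starts of the 10 genes the count ranged from 2 to 35 with a median of 13.5, beside a median of 6 over 32851 promoters of the same length. The 5 starts inside a region had 7 to 20 CpG, and the 7 outside had 2 to 35. Hoxd13 and Hoxa13 had more CpG than 94.8% and 97.0% of all promoters. The motif TATAAA, on either strand, was found in 3 of the 12 stretches (Hoxd13, Evx2 and 1 of Hoxa10), against 12.4% of all promoters. CCAAT was found in 5 of the 12, against 33.8%. Neither motif contains the other. These are descriptions of the letters in these windows.

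At Evx2 (chr2:74652989-74661520), the homeobox gene at the outer edge of the cluster, regions lay on both sides of a change in direction. A region of 7600 bp, the longest of the 26, reached from outside the gene into its span (chr2:74647301-74654900) and had deposited values of 2311, 2435 and 2355 in set 1 against 1936, 1725 and 1880 in set 2, a ratio of 1.28 (1.19 to 1.41 over pairs). The region over the printed Evx2 promoter (chr2:74659351-74660150) was the only region of the HoxD end with a higher sum in set 2. Its deposited values were 177, 203 and 122 in set 1 against 197, 268 and 234 in set 2, 1.39-fold higher in set 2 (0.970 to 2.20 over pairs), and the sets overlapped through the 203 and the 197. The next region (chr2:74661201-74663250), across the edge of the span that faces Hoxd13, again had all set 1 values above all set 2 values, at 1.16-fold. Over its 3 regions Evx2 summed to 2967, 3116 and 2938 in set 1 against 2518, 2422 and 2521 in set 2, a ratio of 1.21 (1.17 to 1.29).

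Hoxd13 (chr2:74668225-74671603), the gene needed for digits and external genitalia, had 2 listed regions, and both separated the sets. The region inside its span (chr2:74669251-74670150) had deposited values of 144, 182 and 201 in set 1 against 114, 124 and 124 in set 2, a ratio of 1.46 (1.16 to 1.76). The other, on the side facing Evx2 (chr2:74663951-74666650), reached into the 2 kb flank with 426 of its 2700 bp, overlaps the noncoding RNA Gm31790 in the annotation, and stood at 1.29-fold. The annotated start lay in the gap between them, 1026 bp from the nearest listed edge. Both together summed to 831, 868 and 789 in set 1 against 672, 625 and 589 in set 2, 1.32-fold (1.17 to 1.47).

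Hoxd12 (chr2:74675013-74677705), which acts with Hoxd11 and Hoxd13 in the limb, had 4 regions, all higher in set 1. The region over its printed promoter (chr2:74674451-74675100) had deposited values of 101, 118 and 121 in set 1 against 50, 89 and 88 in set 2, a ratio of 1.50 (1.13 to 2.42). The sets did not overlap there. The region running from the end of Hoxd12 towards Hoxd11 (chr2:74677351-74678900) had 283, 291 and 345 in set 1 against 188, 168 and 189 in set 2, 1.69-fold (1.50 to 2.05). In the remaining 2 regions the sets overlapped. Over its regions, Hoxd12 summed to 513, 540 and 551 against 290, 319 and 380, 1.62-fold (1.35 to 1.90).

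Hoxd11 (chr2:74679558-74687016), a regulator of the forearm and kidney, and Hoxd10 (chr2:74684273-74695106), which acts in the hindlimb and its motor neurons, have overlapping spans in the annotation and shared 3 regions. The highest ratio of the 26 was in 1 of those (chr2:74684301-74684900), with deposited values of 124, 108 and 99 in set 1 against 51, 47 and 21 in set 2, a ratio of 2.78 (1.94 to 5.90 over pairs). Every set 1 value there was above every set 2 value. Within Hoxd10 alone, a region of 1200 bp lay inside the annotated span but upstream of the start used here (chr2:74690101-74691300). It had 285, 347 and 340 in set 1 against 175, 209 and 225 in set 2, 1.60-fold (1.27 to 1.98). The 7 regions of Hoxd10 summed to 1146, 1272 and 1108 in set 1 against 719, 746 and 765 in set 2, 1.58-fold (1.45 to 1.77). The 5 regions of Hoxd11 summed to 866, 927 and 857 in set 1 against 527, 518 and 560 in set 2, 1.65-fold (1.53 to 1.79), a range that lies within those of Hoxd12 and Hoxa9. All 9 distinct regions of these genes were higher in set 1, and the 3 shared ones are in both sums. Hoxd11 had no region of its own, since its other 2 are also regions of Hoxd12, and without a flank its log2 ratio went from 0.72 to 1.31.

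Hoxd9 (chr2:74697763-74700208), another hindlimb and motor neuron gene, had no listed region within 2 kb. The nearest (chr2:74695301-74695650) ended 113 bp outside its window and counted for Hoxd10, with deposited values of 77, 57 and 52 in set 1 against 56, 12 and 13 in set 2. At 2.30-fold its sets still overlapped, through a single set 2 library at 56. An unlisted stretch can lack the mark or carry it equally in both sets, and the table does not tell these apart.

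**Figure D2:**
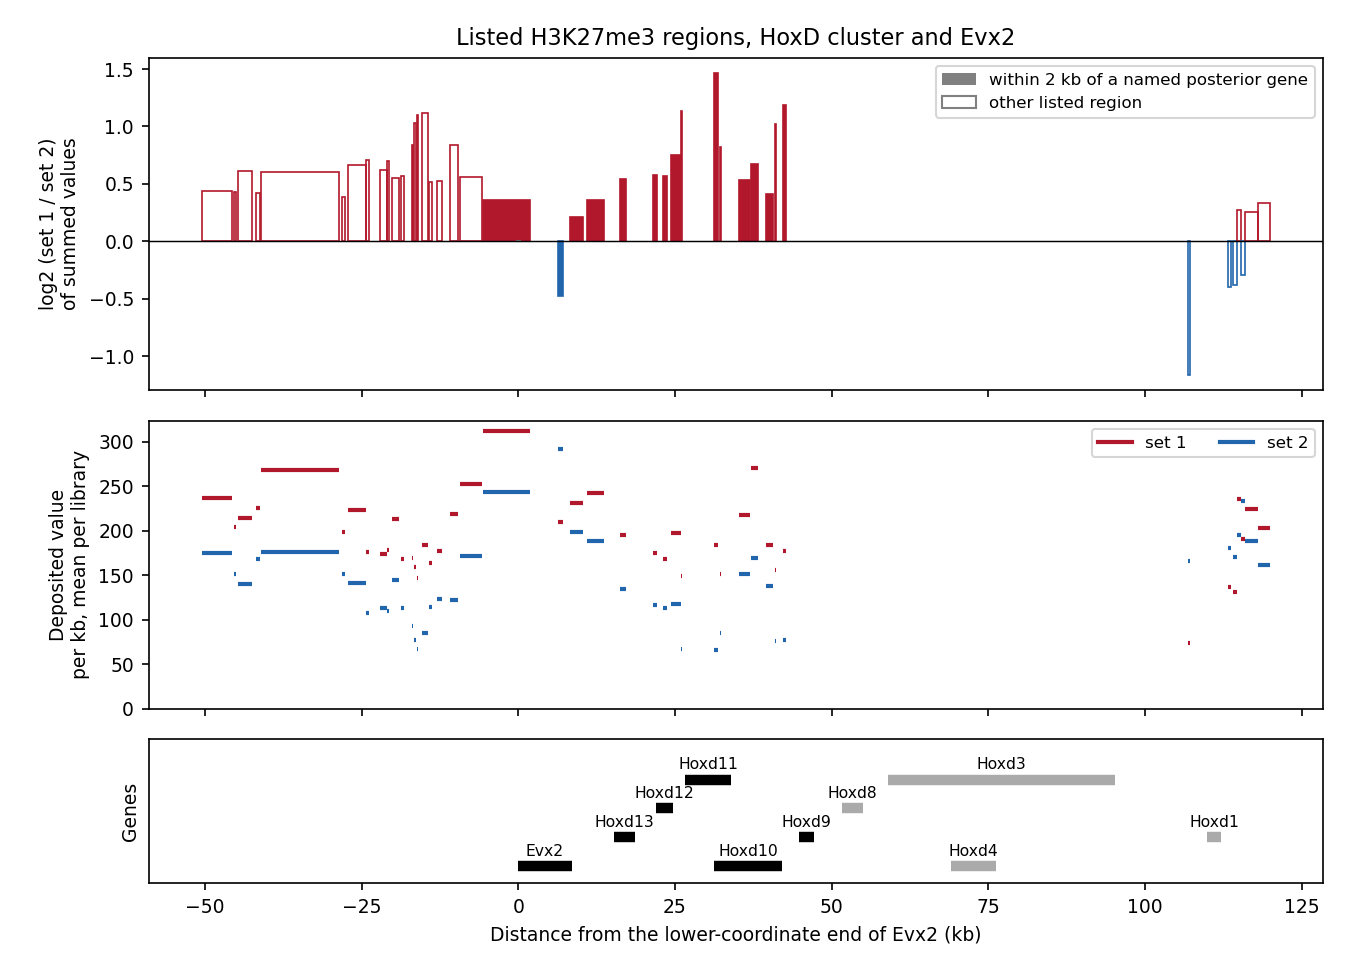
HoxD cluster and the stretch outside Evx2, against distance in kb from the lower-coordinate end of Evx2. Top, log2 ratio of summed values for each listed region, with bar width equal to its length, filled where it lies within 2 kb of one of the 6 genes, red where set 1 and blue where set 2 is higher; middle, mean deposited value per kb per library of set 1 (red) and set 2 (blue), as levels with no error drawn; bottom, gene spans. From Evx2 to Hoxd10, 15 of 16 filled bars point to set 1, and no region is listed from Hoxd9 to Hoxd3.

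At the HoxA end the direction differed from gene to gene. Hoxa9 (chr6:52223097-52227370), a haematopoietic and trunk regulator, had 2 short regions, both higher in set 1. The region in its span (chr6:52223701-52224200) had deposited values of 106, 77 and 77 in set 1 against 50, 48 and 35 in set 2, a ratio of 1.95 (1.54 to 3.03). It was the only HoxA region with all set 1 values above all set 2 values. Over its regions, Hoxa9 summed to 197, 182 and 193 in set 1 against 156, 109 and 94 in set 2, 1.59-fold (1.17 to 2.10).

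Hoxa10 (chr6:52231197-52240854), required in the uterus and the lumbar region, overlapped a region of 6650 bp that took in both of its annotated starts (chr6:52234901-52241550). That region had deposited values of 2090, 2089 and 2181 in set 1 against 2280, 2161 and 2244 in set 2, a ratio of 0.951 (0.916 to 1.01), and its sets overlapped. The region before it (chr6:52230751-52232800) stood at 1.14-fold in the direction of set 1, with values of 497, 503 and 605 against 441, 543 and 425. The Hoxa10 sums were 3062, 3064 and 3347 in set 1 against 3115, 3190 and 3151 in set 2. The ratio of 1.00 (0.960 to 1.07) points neither way, and with the sets rescaled to equal sums over the table its log2 value was -0.19.

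Hoxa11 (chr6:52242105-52245810), the paralogue of Hoxd11 in forearm, kidney and uterus, carried the clearest set 2 signal. The region inside its span (chr6:52243151-52244850) had deposited values of 444, 458 and 345 in set 1 against 604, 550 and 556 in set 2, 1.37-fold higher in set 2 (1.20 to 1.75). It was the only region of the 26 with all set 2 values above all set 1 values. The short region over its start (chr6:52245551-52245850), which took in 40 of the 250 bases printed, had 21, 25 and 54 against 56, 62 and 42, 1.60-fold higher in set 2 with overlapping sets. Between Hoxa10 and this region, 3 adjoining regions of 300 to 800 bp alternated in direction and overlapped between the sets. All 6 regions, including the long one shared with Hoxa10, summed to 3030, 3044 and 3141 in set 1 against 3334, 3259 and 3324 in set 2, 1.08-fold higher in set 2 (1.04 to 1.10). The noncoding RNA Hoxa11os, transcribed from the same interval, had 4 regions within 2 kb, all higher in set 2 (1.21-fold in sum, 1.14 to 1.28); the first 2 of these are also regions of Hoxa11.

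Hoxa13 (chr6:52258853-52260880), the counterpart of Hoxd13 in digits and the genital tubercle, had 1 region of 550 bp that reached 148 bp into its span (chr6:52258451-52259000). Its deposited values were 76, 55 and 50 in set 1 against 116, 75 and 112 in set 2, 1.67-fold higher in set 2, but with a range of 0.987 to 2.32 and overlapping sets. A longer region ended 103 bp outside the Hoxa13 window (chr6:52254301-52256750) and pointed the other way, at 602, 530 and 662 against 532, 417 and 439. The direction at Hoxa13 therefore depends on where the window ends: with a flank of 5 kb its log2 ratio went from -0.74 to 0.14.

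**Figure D3:**
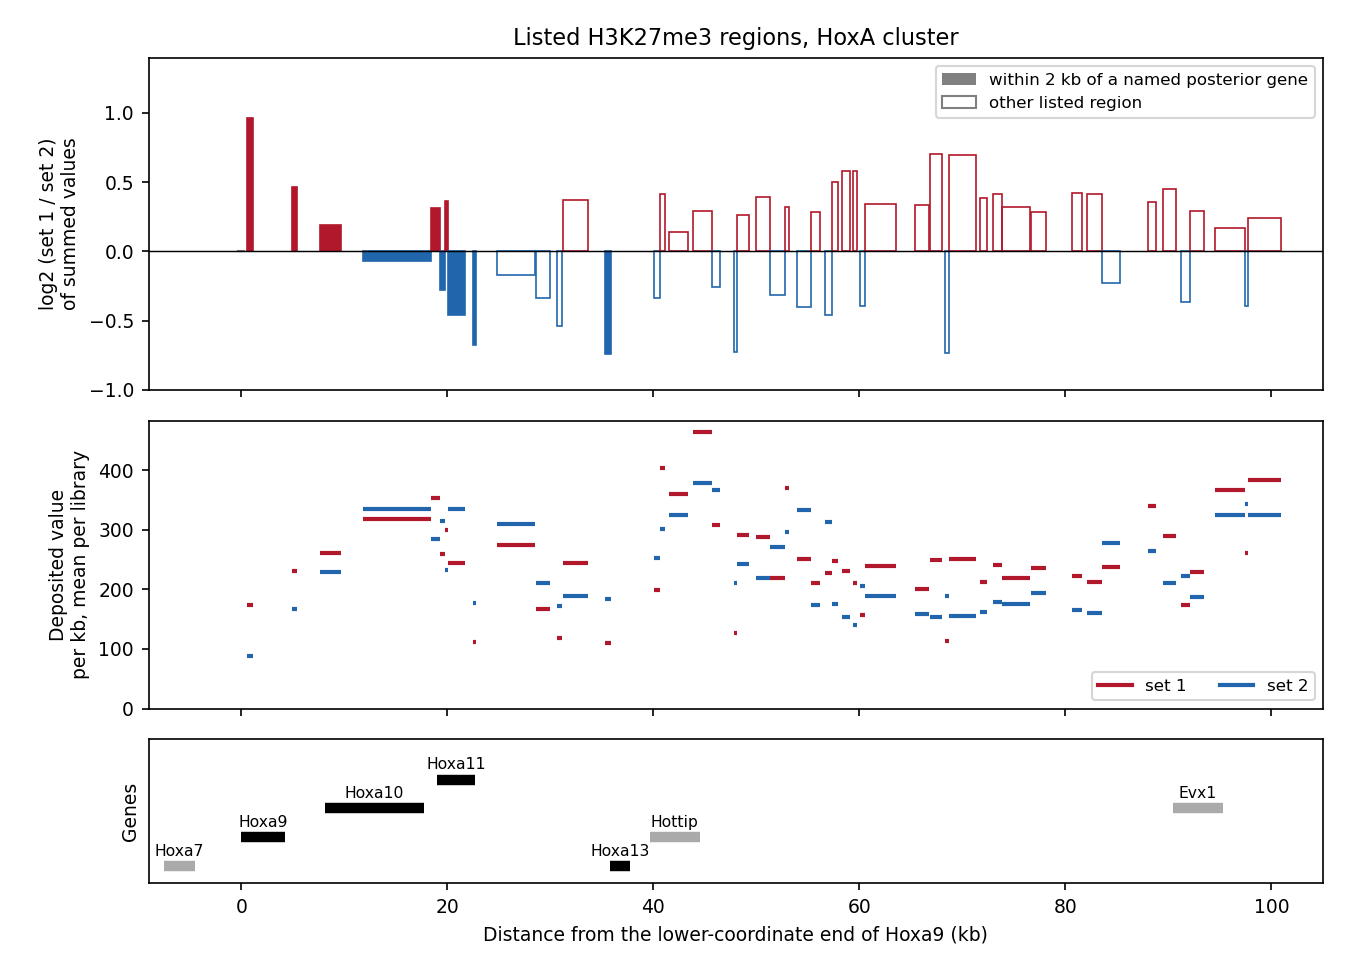
HoxA cluster from Hoxa7 to Evx1, against distance in kb from the lower-coordinate end of Hoxa9. Panels, colours and filling as in the plot of the HoxD cluster. No region is listed at Hoxa7, the filled bars change sign between Hoxa9 and Hoxa13, and the 6650 bp bar over Hoxa10 lies close to 0 (log2 ratio -0.07).

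Paralogues at matching positions differed in ratio between the clusters. Hoxd10 stood at 1.58-fold and Hoxa10 at 1.00-fold, Hoxd11 at 1.65-fold and Hoxa11 at 0.929-fold, and Hoxd13 at 1.32-fold and Hoxa13 at 0.597-fold (set 1 over set 2). Within a library, the Hoxd11 sum was 0.273 to 0.305 of the Hoxa11 sum in set 1 and 0.158 to 0.168 in set 2. For Hoxd10 over Hoxa10 the ranges were 0.331 to 0.415 in set 1 against 0.231 to 0.243 in set 2. For Hoxd13 over Hoxa13 they were 10.9 to 15.8 and 5.26 to 8.33. The set 1 libraries lay above the set 2 libraries in each of the 3 pairs, but for Hoxd13 over Hoxa13 this depends on the window. With a flank of 5 kb that ratio was 0.837 to 0.947 in set 1 and 0.686 to 0.886 in set 2, which overlap, and the log2 ratios were 0.36 at Hoxd13 and 0.14 at Hoxa13. The other 2 pairs stayed apart with that flank. They are largely the same comparison, because Hoxa10 and Hoxa11 share 4 regions and Hoxd10 and Hoxd11 share 3. The shared region of 6650 bp counts in full for Hoxa11, though only 1446 bp of it lie in the Hoxa11 window. Inside the HoxD end, Hoxd10 over Evx2 was 0.377 to 0.408 in set 1 against 0.286 to 0.308 in set 2, so the difference was larger at Hoxd10 than at Evx2.

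Of the 9 genes with regions, the summed sets did not overlap in 7 (all but Hoxa10 and Hoxa13), against 81.4% of 6833 protein-coding genes with regions. The sum was higher in set 1 in 7 of the 9, counting Hoxa10 at 1.00-fold, which turns to set 2 under rescaling, against 69.3% of those genes, so neither share stands far from the background. Of the 10 genes, 8 had a region higher in set 1 and 4 had one higher in set 2 (Hoxa10, Hoxa11, Hoxa13 and Evx2). The shares were 26.5% and 18.0% over all 21887 protein-coding genes. Neighbouring genes here share regions and are not independent. The median log2 ratio was 0.58 over the 16 HoxD regions and 0.06 over the 10 HoxA regions, beside 0.42 over all listed regions.

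Per kb of listed region, the level was highest at Hoxa11 and Hoxa10, with a median over the 6 libraries of 312 and 304. The library ranges of these genes, 296 to 325 and 297 to 325, overlap, so their order is not resolved. Evx2 followed at 261 (232 to 298) and Hoxd13 at 203 (164 to 241). Hoxa9 at 178, Hoxd10 at 169, Hoxd11 at 161, Hoxd12 at 154 and Hoxa13 at 137 had ranges that all overlapped one another. By median, the place of Hoxa13 differed by set. It was 100 in set 1, the lowest of the 9 genes, and 204 in set 2, above the 174 of Hoxd13 and the 115 of Hoxa9. That switch rests on 1 region of 550 bp whose sets overlap. In set 2 the libraries ran from 136 to 211 at Hoxa13, 164 to 187 at Hoxd13 and 99 to 164 at Hoxa9. The place of Hoxa13 among them is therefore not resolved. Genes next to each other in the order over all 6 libraries overlapped in every case. The genes with the highest level per kb were thus among those with the smallest difference between the sets. Hoxa10 and Hoxa11 share 4 regions, among them the one of 6650 bp. Because the list was selected for a difference, small ratios are listed mainly where values are large. No property of these genes is therefore read from this. Listed regions covered 78.3% of the span of Hoxa10 and 81.1% of that of Hoxa11, against 10.7% at Hoxd11, 7.30% at Hoxa13 and 0 at Hoxd9.

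A ratio of at least 2 in either direction was reached by 4 of the 26 regions, all at the HoxD end, against 35.2% of all listed regions. Short regions have larger ratios throughout the table: the median size of the log2 ratio was 1.03 for listed regions up to 500 bp, 0.58 from there to 1000 bp, 0.46 to 2000 bp and 0.42 to 10000 bp. For the 26 regions these medians were 0.82 (9 regions), 0.57 (7), 0.53 (5) and 0.22 (5), lower than the table in the shortest and the longest class, close to it in the next and higher in the third. Of the 4 regions with a ratio of at least 2, 3 were 350 bp or shorter, and the sets overlapped in 2 of these.

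**Figure D4:**
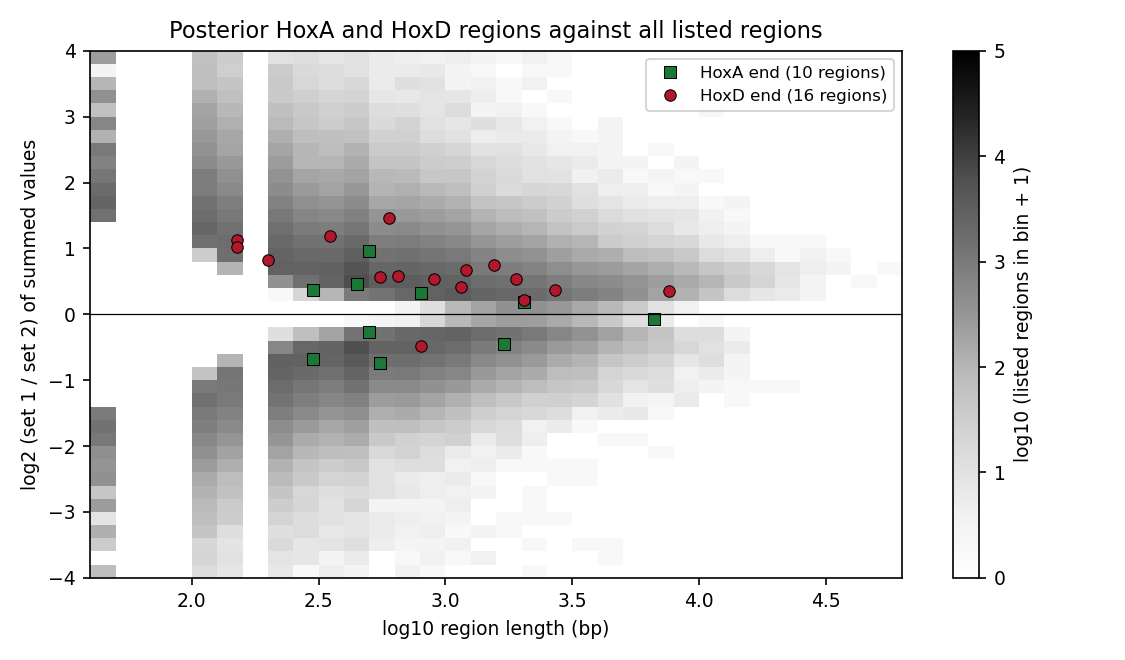
Log2 ratio of summed values against log10 region length for the 10 HoxA regions (squares) and 16 HoxD regions (circles), over a grey density of all 265968 listed regions, of which 1201 lie beyond the vertical axis. The white wedge around 0 is where short regions were not listed; 15 of 16 circles lie above 0, and the squares lie on both sides.

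Listed regions ended abruptly inside both clusters. None was listed within 2 kb of Hoxa2, Hoxa3, Hoxa4, Hoxa5, Hoxa6 or Hoxa7. On chromosome 2 none was listed from 74695651 to 74759850, a stretch of 64.2 kb with Hoxd9, Hoxd8, Hoxd4 and Hoxd3. Gaps this long made up 1.87% of all gaps between neighbouring regions, whose median was 500 bp. Of the HoxD genes beyond Hoxd9, which pattern the hindbrain and upper trunk, only Hoxd1 had regions, 2 with higher sums in set 2 (1.31-fold, 0.937 to 1.80 over pairs) and overlapping sums.

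Outside Evx2 the direction of the HoxD end continued. From the end of Lnpk, the next protein-coding gene, to the Evx2 window lie 71.5 kb, of which listed regions covered 69.5%. Of the 34 regions there 33 were higher in set 1, with a ratio of 1.50 (1.45 to 1.56) in sum. The longest (chr2:74612001-74624350, 12.35 kb) had deposited values of 3295, 3276 and 3348 in set 1 against 2080, 2313 and 2146 in set 2, 1.52-fold. An unbroken run of 26 regions higher in set 1 reached from chr2:74595851 into Evx2. Then 1 region, at the Evx2 start used here, pointed to set 2. A second run of 14, beginning at the edge of the Evx2 span that faces Hoxd13, reached to the last region at Hoxd10. Runs as long made up 4.21% and 7.80% of the set 1 runs of the table. Between the Hoxa13 window and Evx1, the homeobox gene at the matching edge of HoxA, 22 of 31 regions were higher in set 1, at 1.16-fold in sum (1.12 to 1.21). Hottip, a noncoding RNA beyond Hoxa13, stood at 1.11-fold (1.02 to 1.22), and Evx1 at 1.16-fold (1.05 to 1.26).

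The surroundings of the HoxD end were higher in set 1 than the genes themselves. Within 1 Mb on either side, 93.5% of 871 other regions were higher in set 1, with a ratio of 1.70 (1.65 to 1.74) in sum. The sum of the HoxD end equalled 4.85% to 5.12% of the sum of those other regions in the libraries of set 1 and 6.31% to 6.53% in those of set 2, so relative to regions within this distance it was higher in set 2. Around the HoxA end 50.3% of 640 regions within 1 Mb were higher in set 1, with a ratio of 1.06 (0.998 to 1.10), and the HoxA sum equalled 2.58% to 2.86% of theirs in set 1 and 2.85% to 3.02% in set 2, which overlap. No source used here says how the inputs entered the deposited values, and the part of DNA dosage in these differences was not tested.

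Among related genes, 8 were looked up at the posterior ends of HoxB and HoxC, Hotair included. All 8 had a region higher in set 1, against 26.5% of all protein-coding genes. Of the 8, 2 also had 1 higher in set 2, against 18.0%. Those of the 8 with the most regions were Hoxb13 at 1.16-fold (1.11 to 1.19) and Hoxb9 at 1.16-fold (1.13 to 1.20). The sums of the 8 ranged from these to 3.55-fold at Hotair. Of 9 genes for the HOX cofactors PBX, MEIS and PREP, 2 had regions, beside 31.2% of all protein-coding genes. These were Pknox2, with 15 regions pointing to set 1 and 73 to set 2 (1.30-fold higher in set 2), and Meis3, with 1. Of the 3 Cdx genes, which activate posterior Hox genes in the embryo, Cdx1 had 26 regions, all higher in set 1 (7.00-fold, 6.39 to 8.09), and Cdx2 5, with a sum 1.13-fold higher in set 2. Over the 6 libraries, the genes outside the Hox clusters whose summed log2 values ran most like the HoxD end were Prkcz, Cacng6 and Padi4 (Pearson's r 0.999, 0.999 and 0.998 among 5220 genes). With 6 points that mainly hold the difference between the sets, 187 genes reached an r of 0.99.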

How the data were processed

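H3K27me3 chromatin immunoprecipitation libraries from 3T3 fibroblasts were compared in 1 deposited table of 265968 regions without a header. The submitters' processing notes name CASAVA, Trimmomatic 0.36, BWA 0.7.17 and the build GRCm38. No source used here names the region caller, the normalization, the use of the inputs or the order of the sets. Each region of the authors' deposited table carries 3 whole-number values per set and a last number that behaves like a −log10 p. The values were not treated as raw read counts, because in the shortest regions some whole numbers are over-represented differently in different libraries. The authors' sign column went against the sums in 0 regions, region edges lie on a grid of 50 bp, and the lowest −log10 p is 1.0, so only selected regions are listed.

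Regions were assigned to RefSeq gene spans (GRCm38.p6) extended by 2 kb. Exon and intron bounds were not used here. Ratios are of values summed over libraries and regions, and log2 ratios have a pseudocount of 1 on the sums. Promoter sequences came from the RefSeq table of the same build, in which 0 of 1677 overlapping windows on opposite strands failed to be reverse complements. The overlap step was tested on simulated data, with 0 of 300 genes differing from a brute-force count. Python 3.11.15, pandas 2.3.3, numpy 2.4.6 and matplotlib 3.10.9 were used.

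The genes, lists and comparisons were chosen with earlier results of these data known. The named genes are the 10 members, other genes of both clusters and their neighbours, and from each wider list up to 2 with the most regions. For likeness, 3 genes per end with at least 3 regions were ranked by Pearson's r, and the HoxD ones are named; some results are not reported here. The contrast between the ends, the ratios to a neighbourhood, the paralogue ratios with a flank of 5 kb, Gm31790, Hotair and the regions just outside a window were added after the values were seen. Alternatives were the flank (none or 5 kb), the authors' p (under 0.05 or 0.01), rescaling libraries or sets to equal sums, an overlap of at least 50% of a region, only regions whose sets do not overlap, a pseudocount of 0.5, the median over regions, and leaving out each library.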

Additional observations from a re-analysis of the deposited data

How the results depend on the processing

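The HoxD end kept its direction under every alternative run. Its log2 ratio of 0.41 was 0.21 with libraries or with sets rescaled to equal sums (0.210 and 0.211), 0.58 as the median over regions, and 0.37 to 0.43 when each library was left out. The HoxA end, at -0.05, became -0.24 under either rescaling (-0.244 and -0.245), -0.29 with only regions whose sets do not overlap, -0.35 at the authors' p under 0.01 and 0.058 as the median over regions; leaving out libraries gave -0.076 to -0.037. The difference between the ends, 0.46, was 0.72 with only regions whose sets do not overlap, 0.76 at p under 0.01 and 0.41 to 0.50 without each library. The settings by p or by separation keep regions for the difference itself, and separation left only 2 HoxA regions. They therefore say little about the contrast. They could hardly reverse the HoxD end, where 15 of 16 regions were higher in set 1. The 26 regions comprised 20 higher in set 1 and 6 with the reverse, of which 12 and 1 had sets that do not overlap, and 9 and 3 had p under 0.01; with only regions whose sets do not overlap, 1 gene carried a region higher in set 2 in place of 4. Leaving out a library changed none of these 4 counts (20, 6, 8 and 4 throughout). Hoxa10, with a log2 ratio of 0.0026, turned to -0.023 without a flank, -0.053 with 5 kb and -0.0069 with an overlap of 50%. Under either rescaling it was -0.19 (-0.190 and -0.192). It moved the other way, to 0.23, at the authors' p under 0.05, and to 0.19 as the median over regions. Without each library it ranged from -0.041 to 0.024. Hoxa13 turned to 0.14 with a flank of 5 kb. Hoxd9 gained a ratio only with that flank (0.59). Evx2 came down to 0.08 under either rescaling, Hoxd13 from 0.40 to 0.20 with libraries and 0.21 with sets rescaled. Hoxa11, at -0.11, was -0.18 without a flank or with an overlap of 50%, -0.22 at p under 0.05 and -0.30 under either rescaling. It was -0.46 at p under 0.01 or with only regions whose sets do not overlap, where 1 of its 6 regions was left. Hoxd11, at 0.72, was 1.31 without a flank, and Hoxa9, at 0.67, was 0.30 with 5 kb. No paired analysis was possible because the table does not say which value belongs to which numbered replicate. Depth is unknown, so low values, as in regions of 150 to 350 bp, carry no counting interval.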

Other observations

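Within 5 Mb of the HoxD end, 87.5% of 2143 other regions were higher in set 1 (1.48-fold in sum, 1.43 to 1.51 over pairs). Over chromosome 2, with the regions within 5 Mb included, 60.3% of 21635 were (1.13-fold). Within 5 Mb of the HoxA end, 44.8% of 2845 were higher in set 1 (1.04-fold, 0.960 to 1.08). Over chromosome 6, again with the regions within 5 Mb included, 55.2% of 20171 were (1.11-fold). The sum of the HoxA end equalled 6.46% to 7.03% of that of the other regions within 500 kb in set 1 and 8.26% to 8.52% in set 2, which do not overlap. For the HoxD end these ratios were 11.8% to 12.5% and 14.5% to 15.2%. Against the other regions within 100 kb they overlapped, at 43.6% to 47.0% and 47.0% to 47.6%.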
